A study of Rattus norvegicus with 59 samples.

Results

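The genes described here mark the outgrowing ureteric bud and the nephron progenitors beside it: Wnt11, Gfra1, Etv4, Ret, Eya1 and Lhx1. They were taken by symbol from the annotation of a rat expression array, whatever their values. Of the 6 genes, 5 had a probe named in that annotation, 1 probe each, among 22523 probes in all. Eya1 had none and is named only. Wnt11 and Gfra1 lie on rat chromosome 1, Ret on chromosome 4, and Etv4 and Lhx1 on chromosome 10 (assembly GRCr8).

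The kidney grows by branching of an epithelial tube, the ureteric bud, into a mesenchyme that holds the nephron progenitors. Gdnf, secreted by the mesenchyme, binds the receptor pair Ret and Gfra1 on the bud tips, and this signal keeps the transcription factor Etv4 and the secreted factor Wnt11 expressed there. Eya1 is a cofactor needed in the mesenchyme before branching starts, and Lhx1 is a transcription factor of the bud and of the renal vesicle, the first epithelial stage of a new nephron. In rats new nephrons still form in the first days after birth, and the zone that forms them is then used up.

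Whole kidneys of Fawn-Hooded Hypertensive (FHH) rats, an inbred strain that develops high blood pressure and kidney damage, were each measured on 1 array. In the PDTC groups the pregnant dams had drunk water with pyrrolidine dithiocarbamate, given as an NF-kB inhibitor, at 150 mg/L, from 2 weeks before delivery until the young were 4 weeks old; the other groups had received none. The PDTC groups held 4 males and 4 females at 2 days, 4 males and 6 females at 2 weeks, and 5 males and 5 females in adulthood. The untreated groups held 5 males and 5 females at 2 days, 6 males and 5 females at 2 weeks, and 5 males and 5 females in adulthood. Adult males were 36 weeks and adult females 42 weeks old, so sex and age in weeks cannot be told apart in adults. All groups were FHH rats, and no strain without the disease was part of the design. The labels do not say which rats were littermates, and p-values therefore cover the variation among these rats alone.

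Levels are log2 intensities after background correction and quantile normalization over all 59 arrays, and they can be compared between arrays for 1 probe but not between probes. Above background here means that a probe's signal exceeded that array's background at a one-sided p under 0.05. Between 9139 and 12488 probes were above background on an array, the median being 11936 for 2-day, 12121 for 2-week and 10188 for adult arrays. Most markers of the kidney were present. Above background on most arrays of every age were 4 of 4 proximal tubule and 7 of 7 collecting duct markers with a probe. The same held for Umod of the loop of Henle. Of the podocyte markers with a probe, Nphs1 and Podxl were above background on all 59 arrays and Synpo on 1. Cdh5, the only endothelial marker with a probe, was above it on 7 arrays of 2 days, 3 of 2 weeks and 0 of adulthood. Of the muscle markers, Ckm was above background on 0 of the 59 arrays and Acta1 on 5, all of 2 days. Of 5 markers of the adrenal gland, which lies beside the kidney, Cyp11b1 and Cyp11b2 were above background on 0 arrays, Th on 12, and Star and Cyp17a1 on 50 each, and their part in the results was not tested. The summed level of 3 fat markers varied between arrays of 1 age, from 7.72 to 11.12 in log2 at 2 days, 9.23 to 13.73 at 2 weeks and 7.85 to 12.05 in adulthood, and its part in the results was not tested. Rats of 2 days and 2 weeks were on slides 1 to 6 and adults on slides 7 to 10. The exception, untreated 2-week male 6, was on slide 8 and stood apart: on the first principal component of all arrays it had 11.5, against -30.3 to -23.9 for the other untreated 2-week males. Differences that involve the untreated rats of 2 weeks are also given without it.

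The promoters of Ret, Gfra1, Wnt11 and Lhx1 are shown because these genes fell together after birth. They are the 4 of the 6 genes that matched the promoter table by symbol, and Etv4 and Eya1 are named only. Each is the 300 bases from 250 before to 50 after the gene's start in the RefSeq annotation of GRCr8, read 5′ to 3′ on the gene's strand, with CG dinucleotides in capitals. They lie at chr4:153040507-153040806 on the minus strand for Ret, chr1:267555762-267556061 on the minus strand for Gfra1, chr1:162549110-162549409 on the plus strand for Wnt11 and chr10:69901027-69901326 on the minus strand for Lhx1.
Ret: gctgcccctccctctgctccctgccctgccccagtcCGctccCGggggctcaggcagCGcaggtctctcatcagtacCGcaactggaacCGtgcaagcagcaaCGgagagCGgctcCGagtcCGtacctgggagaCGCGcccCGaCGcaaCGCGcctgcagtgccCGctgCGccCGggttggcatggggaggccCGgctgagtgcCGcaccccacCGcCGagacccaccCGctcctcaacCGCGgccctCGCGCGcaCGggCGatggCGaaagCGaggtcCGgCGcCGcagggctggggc
Gfra1: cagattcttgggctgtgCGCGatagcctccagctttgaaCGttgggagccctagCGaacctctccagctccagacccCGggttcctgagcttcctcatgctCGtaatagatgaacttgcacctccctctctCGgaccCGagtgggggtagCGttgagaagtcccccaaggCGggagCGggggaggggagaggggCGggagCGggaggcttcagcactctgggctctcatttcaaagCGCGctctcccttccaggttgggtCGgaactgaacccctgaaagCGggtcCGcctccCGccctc
Wnt11: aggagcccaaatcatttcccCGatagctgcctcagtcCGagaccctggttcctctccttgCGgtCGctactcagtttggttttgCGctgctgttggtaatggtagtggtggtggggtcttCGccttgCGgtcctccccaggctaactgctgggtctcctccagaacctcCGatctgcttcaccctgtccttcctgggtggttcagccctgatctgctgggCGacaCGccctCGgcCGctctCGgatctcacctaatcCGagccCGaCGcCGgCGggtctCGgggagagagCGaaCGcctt
Lhx1: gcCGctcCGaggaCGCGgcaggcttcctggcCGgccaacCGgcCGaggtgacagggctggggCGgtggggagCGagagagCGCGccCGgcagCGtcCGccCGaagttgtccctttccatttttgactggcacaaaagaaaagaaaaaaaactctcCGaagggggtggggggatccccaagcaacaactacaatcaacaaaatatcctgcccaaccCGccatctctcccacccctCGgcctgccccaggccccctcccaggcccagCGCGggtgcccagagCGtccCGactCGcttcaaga
Ret had 35 CG dinucleotides, Lhx1 23, Wnt11 21 and Gfra1 19, against a median of 7 over 33469 rat promoters of this length. Ret's promoter thus had more CG dinucleotides than 93.9% of promoters, Lhx1's than 80.5%, Wnt11's than 77.4% and Gfra1's than 74.3%. The G and C content was 74% in Ret, 64.7% in Lhx1, 63% in Gfra1 and 61.7% in Wnt11. Searched on both strands, the letters CCGGAAG, bound by ETS factors, the family of Etv4, occurred in none of the 4 windows and in 8.75% of all promoters. The letters CTTTGAT, bound by the TCF and LEF factors of Wnt signalling, also occurred in none of the 4 windows, against 3.63% of all promoters.

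The 5 genes with a probe were measured above background in newborn kidneys and their levels had dropped by 2 weeks of age under both treatments. By 2 weeks Ret was not above background on 20 of 21 kidneys and Etv4 on 17 of 21. Wnt11 was still above it on most kidneys at 2 weeks and on none in adulthood. Gfra1 and Lhx1 stayed above background on all 59 arrays, and Gfra1 was higher again in adults. In whole kidneys, fewer cells of a type and less RNA per cell cannot be told apart.

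**Figure D1:**
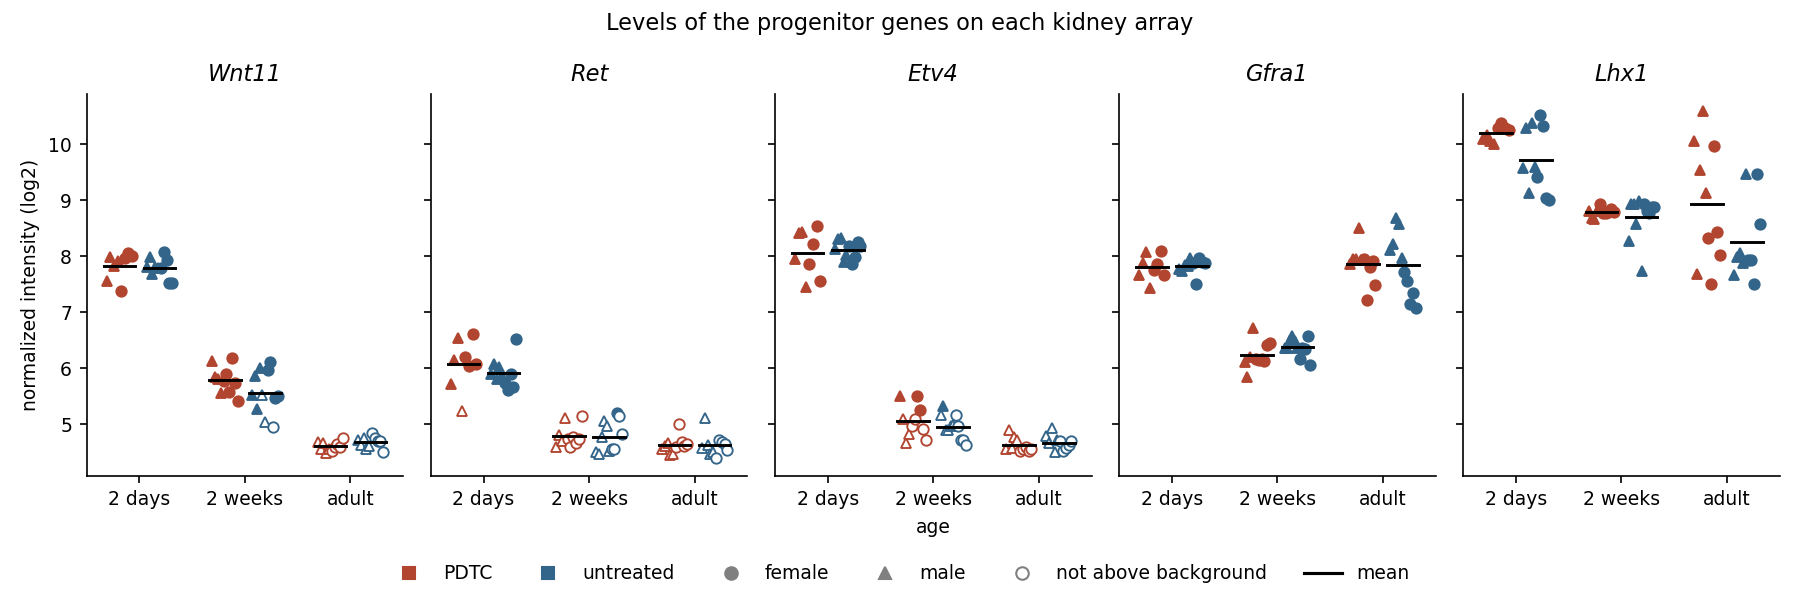
Normalized intensity (log2, vertical axis) of Wnt11, Ret, Etv4, Gfra1 and Lhx1 on each of the 59 arrays at 2 days, 2 weeks and adulthood, PDTC left of untreated; circles are females, triangles males, open symbols are values not above background and bars are means. Wnt11, Ret and Etv4 end as open symbols in all 20 adults, Gfra1 dips at 2 weeks, and Lhx1 is spread widely in adults, between 7.51 and 10.60.

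Ret, the receptor tyrosine kinase that carries the Gdnf signal into the bud tip cells, had a lowest, median and highest level of 5.22, 6.11 and 6.61 in PDTC rats of 2 days, against 5.61, 5.87 and 6.52 in untreated rats of 2 days. At 2 weeks these were 4.58, 4.73 and 5.15 in PDTC rats and 4.47, 4.78 and 5.19 in untreated rats. In adults they were 4.45, 4.60 and 4.996 in PDTC rats and 4.38, 4.60 and 5.11 in untreated rats. Ret was above background on 7 of 8 PDTC arrays and 10 of 10 untreated arrays at 2 days, on 0 of 10 and 1 of 11 at 2 weeks, and on 0 of 10 and 0 of 10 in adulthood. Its signal was low even in newborns, with a median of 1.64 times the array's background level at 2 days, 1.03 times at 2 weeks and 0.911 times in adulthood. The only 2-week kidney above background was untreated female 3, at 5.19. The fall in Ret was thus a fall to background between 2 days and 2 weeks. The highest 2-week value of each treatment lay below the lowest 2-day value of that treatment. The 2 ages were likewise apart, in either direction, for 11.6% of all tested probes in PDTC rats and 8.81% in untreated rats.

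Gfra1, the membrane-anchored coreceptor that binds Gdnf and presents it to Ret, followed another course. Its lowest, median and highest levels at 2 days were 7.43, 7.81 and 8.09 in PDTC rats and 7.51, 7.87 and 7.97 in untreated rats. At 2 weeks they were 5.85, 6.16 and 6.71 in PDTC rats and 6.06, 6.36 and 6.57 in untreated rats, all under the newborn range. In adults they were 7.22, 7.93 and 8.50 in PDTC rats and 7.07, 7.85 and 8.68 in untreated rats, all above the 2-week range of the same treatment. Gfra1 never fell below background: its median signal was 4.18 times the background level at 2 days, 1.88 times at 2 weeks and 2.13 times in adulthood.

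Etv4, an ETS-family transcription factor induced by Ret signalling in the bud tips, had a lowest, median and highest level of 7.44, 8.09 and 8.55 in PDTC rats of 2 days and 7.86, 8.16 and 8.32 in untreated rats of 2 days. At 2 weeks these were 4.66, 5.03 and 5.50 in PDTC rats and 4.63, 4.96 and 5.32 in untreated rats. Etv4 was above background on every 2-day array, on 3 of 10 PDTC arrays and 1 of 11 untreated arrays at 2 weeks, and on no adult array. The 4 kidneys still above background at 2 weeks were PDTC male 1 at 5.50, PDTC females 3 and 4 at 5.50 and 5.25, and untreated male 2 at 5.32. Adult levels of Etv4 averaged 4.62 ± 0.13 in PDTC rats and 4.67 ± 0.13 in untreated rats (SD, n = 10 each), a level that marks background only.

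Wnt11, a secreted Wnt ligand of the bud tips, had a lowest, median and highest level of 7.38, 7.94 and 8.05 in PDTC rats of 2 days and 7.52, 7.80 and 8.08 in untreated rats of 2 days. At 2 weeks these were 5.41, 5.79 and 6.19 in PDTC rats and 4.95, 5.52 and 6.11 in untreated rats. In adults they were 4.48, 4.59 and 4.75 in PDTC rats and 4.50, 4.69 and 4.84 in untreated rats, below every 2-week value of the same treatment. Wnt11 was above background on all 2-day arrays, on 10 of 10 PDTC arrays and 8 of 11 untreated arrays at 2 weeks, and on 0 of 20 arrays in adulthood. It was thus the last of the 3 genes that reached background to do so, between 2 weeks and adulthood. The 3 untreated 2-week kidneys not above background were males 5 and 6 and female 3, at 5.52, 5.04 and 4.95, and male 6 is the array that stood apart.

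Lhx1, the LIM-domain transcription factor of the bud and the renal vesicle, had a lowest, median and highest level of 10.004, 10.22 and 10.39 in PDTC rats of 2 days and 8.999, 9.585 and 10.53 in untreated rats of 2 days. At 2 weeks these were 8.67, 8.79 and 8.93 in PDTC rats and 7.74, 8.87 and 8.996 in untreated rats, the lowest being untreated male 6. In adults they were 7.51, 8.78 and 10.60 in PDTC rats and 7.51, 7.96 and 9.47 in untreated rats. The 2-week and 2-day kidneys of each treatment did not overlap, as for 11.6% of tested probes in PDTC rats and 8.81% in untreated rats. PDTC adults spanned both ranges, while untreated adults overlapped the 2-week range and only the lower part of the 2-day range. The median signal was 16.8 times the background level at 2 days, 7.09 times at 2 weeks and 2.59 times in adulthood, and every array was above background. The SD was 1.09 in PDTC adults (n = 10), against 0.075 in PDTC rats of 2 weeks (n = 10). It was 0.70 in untreated adults (n = 10), against 0.38 in untreated rats of 2 weeks (n = 11), or 0.22 without untreated male 6. The difference in spread was not tested.

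Where the background is drawn changes these counts near it. With a one-sided p under 0.01, Wnt11 at 2 weeks was above background on 8 of 10 PDTC arrays and 5 of 11 untreated arrays, and Etv4 on 2 and 0. With the deposited detection p-value under 0.05 and a signal above the background level, Wnt11 at 2 weeks was above on 10 of 10 and 11 of 11, Etv4 on 7 and 6, and Ret on 2 and 3. Under each of these 3 rules Ret was above background on at least 7 of 8 PDTC arrays and 9 of 10 untreated arrays at 2 days, and Wnt11, Etv4 and Ret on none in adulthood.

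From 2 days to 2 weeks all 5 measured genes fell in PDTC rats and all 5 fell in untreated rats. Ret passed the filter through its 2-day arrays and could only be lower. The count thus rests on Wnt11, Gfra1, Etv4 and Lhx1. In limma's test with Benjamini-Hochberg adjustment over 14079 probes, 33.7% of probes changed in PDTC rats (15.6% rose and 18.1% fell) and 40.2% in untreated rats (17.9% rose and 22.3% fell), so that a fall by itself was common. Etv4 averaged 5.05 ± 0.295 in PDTC rats of 2 weeks and 8.06 ± 0.42 in PDTC rats of 2 days (SD), a level at least 6.87-fold lower (limma, adjusted p = 2.25e-19). In untreated rats it averaged 4.94 ± 0.21 at 2 weeks and 8.11 ± 0.17 at 2 days, at least 7.05-fold lower (limma, adjusted p = 1.49e-21). These folds are bounds, and for background-corrected levels only. Just 3 of 10 PDTC and 1 of 11 untreated kidneys of 2 weeks were above background. Each kidney counts with its own level or, if higher, with the lowest level measurable on its array. Without background correction the differences were smaller, as given below. Wnt11 fell by 2.04 ± 0.14 in PDTC rats (4.11-fold lower; limma, adjusted p = 1.8e-14) and fell by 2.23 ± 0.13 in untreated rats (4.68-fold lower; adjusted p = 8.17e-17). Gfra1 fell by 1.57 ± 0.094 in PDTC rats (2.98-fold lower; limma, adjusted p = 7.11e-16) and fell by 1.46 ± 0.086 in untreated rats (2.75-fold lower; adjusted p = 3.21e-16). All 3 are components or targets of the same receptor signal, and in each the 2-week and 2-day kidneys of a treatment did not overlap, as was so for 11.6% of all tested probes in PDTC rats and 8.81% in untreated rats. Without untreated male 6 of 2 weeks, the falls in untreated rats were by 2.18 for Wnt11 and 1.45 for Gfra1, and for Etv4 the fitted difference in log2 level was -3.18.

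The size of these differences depended on the background correction, which raises folds at low signal. With no background correction the difference in log2 level, 2 weeks minus 2 days, was -1.64 for Etv4, -1.15 for Wnt11, -0.94 for Gfra1, -0.59 for Ret and -1.26 for Lhx1 in PDTC rats. In untreated rats it was then -1.73 for Etv4, -1.21 for Wnt11, -0.89 for Gfra1, -0.54 for Ret and -0.885 for Lhx1. The authors' deposited log2 values gave similar sizes, for Etv4 -1.65 in PDTC rats and -1.74 in untreated rats, and all 5 genes passed limma's test on either kind of value.

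Ret averaged 4.78 ± 0.19 in PDTC rats of 2 weeks (SD, n = 10), all at background, and 6.07 ± 0.44 in PDTC rats of 2 days (n = 8), which is a level at least 1.83-fold lower (limma, adjusted p = 2.93e-09). In untreated rats Ret averaged 4.78 ± 0.28 at 2 weeks (n = 11), with 1 kidney above background, and 5.905 ± 0.26 at 2 days (n = 10), at least 1.54-fold lower (limma, adjusted p = 5.38e-09). The Ret difference in log2 level was -1.10 without untreated male 6. Ret was above background on 17 of 18 arrays at 2 days and 1 of 21 at 2 weeks, so it entered the test through its 2-day arrays, and the direction of its difference was fixed by that: its p-values support nothing further. Lhx1 fell by 1.42 ± 0.18 in PDTC rats (2.67-fold lower; limma, adjusted p = 4e-08) and fell by 1.01 ± 0.16 in untreated rats (2.02-fold lower; adjusted p = 2.87e-06). Without untreated male 6 of 2 weeks, Lhx1 fell by 0.93 on the log2 scale in untreated rats, and without slide 6, whose 2-day arrays were all untreated, it fell by 1.30.

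Each of the 5 genes was lower at 2 weeks than at 2 days within every slide that held both ages, on 5 of 5 slides for PDTC rats and 6 of 6 for untreated rats. The smallest such difference in log2 level, 2 weeks minus 2 days, was -2.53 for Etv4, -1.43 for Wnt11, -0.99 for Gfra1, -0.73 for Ret and -0.27 for Lhx1. limma's interaction test, of whether the age change differed between treatments, called 0 of 14079 probes (473 at an unadjusted p under 0.05). The PDTC change minus the untreated change in log2 level had a 95% interval of -0.19 to 0.565 for Wnt11, -0.37 to 0.146 for Gfra1, -0.20 to 0.54 for Etv4, -0.55 to 0.22 for Ret and -0.89 to 0.076 for Lhx1. Each interval includes 0, and a difference of the age change inside these intervals remains possible with this number of arrays.

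**Figure D2:**
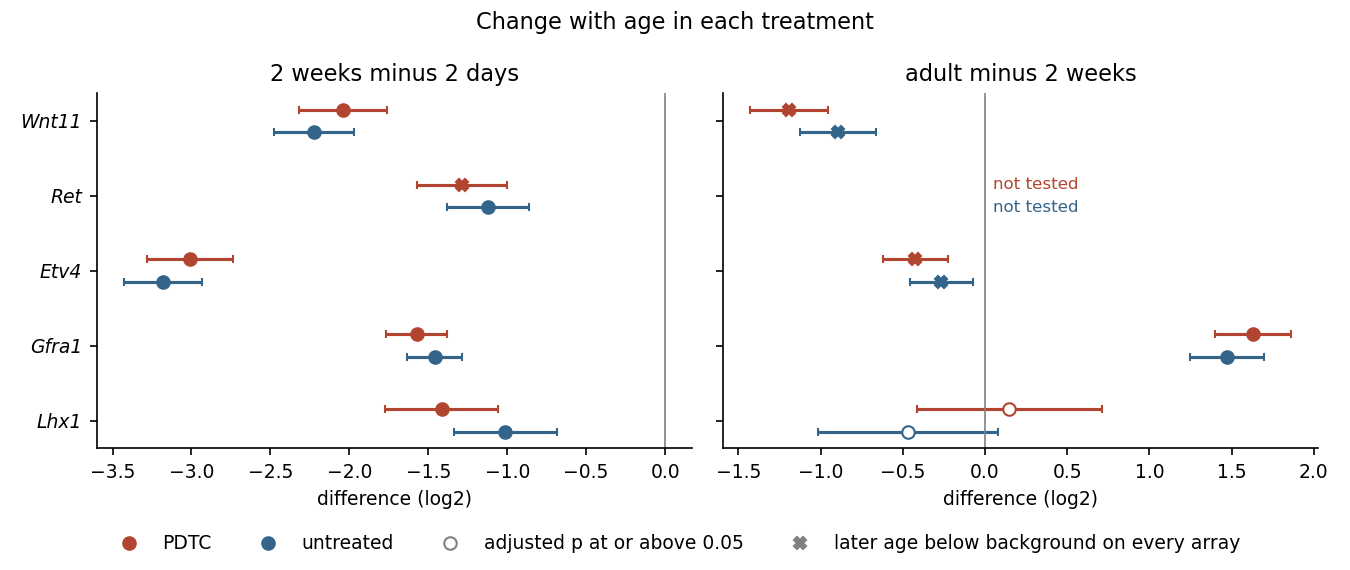
Fitted difference in log2 level (horizontal axis) of each gene between ages, 2 weeks minus 2 days on the left and adult minus 2 weeks on the right, PDTC above untreated; bars are 95% intervals, crosses mark a later age that was below background on every array, and open symbols have an adjusted p of 0.05 or more. All 5 genes lie left of 0 in the left panel, and in the right panel only Gfra1 lies wholly to the right, at 1.63 in PDTC and 1.47 in untreated rats.

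Between 2 weeks and adulthood Gfra1 rose and Wnt11 reached background. In limma's test 64.4% of 13951 probes changed in PDTC rats (31.7% rose and 32.7% fell) and 66.0% in untreated rats (33.1% rose and 32.9% fell). Gfra1 was higher in adults by 1.63 ± 0.12 on the log2 scale in PDTC rats (3.1-fold; SE, limma, adjusted p = 5.15e-15) and by 1.47 ± 0.11 in untreated rats (2.77-fold; adjusted p = 3.56e-14). For Gfra1 and Wnt11 the adult and 2-week kidneys did not overlap in either treatment, as for 23.6% of probes in PDTC rats and 11.6% in untreated rats. The rise in untreated rats was 1.46 without untreated male 6 of 2 weeks. The size depended on the background correction, without which Gfra1 was higher by 0.985 in PDTC adults and 0.92 in untreated adults, and on the scaling between arrays. With each array scaled to 1 median instead of quantile-normalized, Gfra1 was higher by 0.71 in PDTC adults and 0.62 in untreated adults, where the median of all probes moved by -0.60 and -0.51. Relative to that shift Gfra1 was higher by 1.31 and 1.12. Before any normalization its median signal was 157.6 in PDTC adults and 149.9 in untreated adults, against 177.3 and 169.1 at 2 weeks, on arrays with background levels of 59.9 to 82.2 in adults and 74 to 119 at 2 weeks.

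Wnt11 averaged 4.60 ± 0.082 in PDTC adults and 5.79 ± 0.24 in PDTC rats of 2 weeks (SD, n = 10 each), a level at least 1.04-fold lower (limma, adjusted p = 4.54e-11). In untreated rats it averaged 4.67 ± 0.10 in adults (n = 10) and 5.56 ± 0.39 at 2 weeks (n = 11; limma, adjusted p = 1.66e-08), with no fold because the lowest measurable level in adults was above the 2-week mean. Wnt11 was above background on 18 of 21 arrays at 2 weeks and 0 of 20 in adulthood, so it entered the test through its 2-week arrays. The direction of its difference was fixed by that, and its p-values support nothing further. Without untreated male 6 of 2 weeks the differences in log2 level, adult minus 2 weeks, were -0.94 for Wnt11 and -0.27 for Etv4 in untreated rats. Etv4 averaged 4.62 ± 0.13 in PDTC adults and 5.05 ± 0.295 in PDTC rats of 2 weeks (limma, adjusted p = 0.000268), and 4.67 ± 0.13 and 4.94 ± 0.21 in untreated rats (adjusted p = 0.0133), at background in all adults and in most rats of 2 weeks. It was above background on 4 of 21 arrays at 2 weeks and 0 of 20 in adulthood. Etv4 too thus entered the test through 2-week arrays alone, and its p-values support nothing further. Scaled to 1 median, the Etv4 difference, adult minus 2 weeks, changed sign to 0.027 in PDTC rats and 0.125 in untreated rats. Ret was above background on too few arrays to be tested.

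Set against newborns, the adult level of Etv4 was at least 5.01-fold lower in PDTC rats and 4.86-fold lower in untreated rats. That of Wnt11 was at least 4.29-fold lower in PDTC rats and 3.89-fold lower in untreated rats. That of Ret was at least 1.26-fold and 1.05-fold lower, a bound set by its low signal in newborns. These bounds were not tested, and adults and newborns shared no slide.

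Lhx1 did not pass the test between adults and 2 weeks: the difference in log2 level was 0.15 ± 0.28 in PDTC rats (SE, limma, adjusted p = 0.656) and -0.47 ± 0.27 in untreated rats (adjusted p = 0.124). Scaled to 1 median, it was -0.91 in PDTC rats (limma, adjusted p = 0.0058) and -1.41 in untreated rats (adjusted p = 4.21e-05), below the shift of all probes in both. Leaving out untreated adult male 5 gave -0.63 in untreated rats (limma, adjusted p = 0.0347) and leaving out untreated adult female 4 gave -0.62 (adjusted p = 0.0403). Leaving out PDTC adult female 3 gave -0.042 in PDTC rats. The sign of the Lhx1 difference in PDTC rats thus rested on the scaling and on single adults, while in untreated rats it was negative under every alternative run, from -1.41 to -0.36, and whether it passed the test rested on them. Without untreated male 6 of 2 weeks it was -0.55 in untreated rats (limma, adjusted p = 0.0704). Only slide 8 held both ages, through untreated 2-week male 6: there the adult minus 2-week difference in untreated rats was 1.56 for Gfra1, -0.26 for Wnt11 and 0.058 for Lhx1, and elsewhere slide and age cannot be told apart. The interaction of age and treatment called 0 of 13951 probes in limma's test (501 at an unadjusted p under 0.05), and its 95% intervals for the 4 genes tested reached from -0.63 for Wnt11 to 1.402 for Lhx1.

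Maternal PDTC was compared with no treatment at each age to see whether these genes responded to it, and none of them passed the test at any age. limma called 0 of 13163 probes at 2 days (0% called; 2085 at an unadjusted p under 0.05), 0 of 13360 at 2 weeks (697 unadjusted) and 0 of 11701 in adulthood (668 unadjusted). At 2 days the PDTC minus untreated difference in log2 level was 0.042 ± 0.10 for Wnt11 (SE; 95% interval -0.17 to 0.26), -0.026 ± 0.089 for Gfra1 (-0.21 to 0.16), -0.058 ± 0.14 for Etv4 (-0.36 to 0.24) and 0.16 ± 0.16 for Ret (-0.17 to 0.49). These 4 intervals span 0, and the values of the 2 treatments overlapped for each gene. The signs carry no weight: with each array scaled to 1 median all 4 differences were above 0, from 0.16 for Etv4 to 0.285 for Ret, where the median of all probes moved by 0.12.

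Lhx1 at 2 days had the largest PDTC difference of the 5 genes, 0.47 ± 0.21 in log2 level (SE; 95% interval 0.029 to 0.91; limma, adjusted p = 0.281). The 8 PDTC kidneys lay close together, from 10.004 to 10.39. Of the 10 untreated kidneys 6 lay below them, at 8.999 to 9.595, and 4 were at 10.30, 10.33, 10.38 and 10.53, of which the first 3 lay within the PDTC range. Of the 3 untreated 2-day kidneys on slide 6, which held no PDTC kidney of that age, all were among the lower 6, at 9.595, 9.04 and 8.999. Without slide 6 the difference was 0.23, with slide as a fixed term 0.24, and within the 5 slides that held both treatments it was higher in PDTC rats on 3 and lower on 2. At 2 weeks the difference was 0.063 ± 0.12 (-0.020 without untreated male 6), and in adulthood 0.68 ± 0.36 (95% interval -0.077 to 1.43; limma, adjusted p = 0.799).

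At 2 weeks Wnt11 differed by 0.23 ± 0.14 (SE; 95% interval -0.068 to 0.53), Gfra1 by -0.14 ± 0.091 (-0.33 to 0.049) and Etv4 by 0.11 ± 0.11 (-0.12 to 0.34) in log2 level, PDTC minus untreated. These differences were 0.18, -0.15 and 0.11 for the same 3 genes without untreated male 6. In adulthood Gfra1 differed by 0.019 ± 0.14 (-0.26 to 0.30), while Wnt11, Etv4 and Ret were below background on all 20 arrays and could not be compared. Wnt11 at 2 weeks was above background on more PDTC than untreated kidneys by the counts given above, a difference that was not tested. The test of whether the PDTC effect differed between females and males called none of the genes: limma called 0 probes at 2 days, 2 weeks and adulthood (309, 186 and 919 at an unadjusted p under 0.05).

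**Figure D3:**
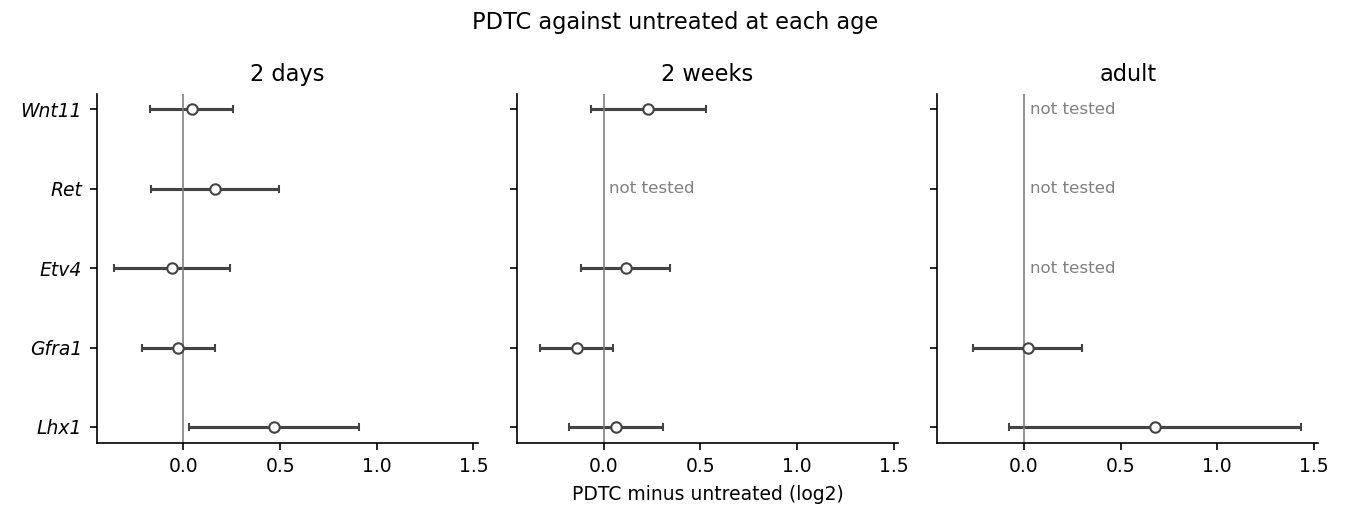
PDTC minus untreated difference in log2 level (horizontal axis) of each gene at 2 days, 2 weeks and adulthood; points are limma estimates over both sexes and bars 95% intervals. All intervals except that of Lhx1 at 2 days (0.029 to 0.91) include 0, and no difference passed after adjustment.

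Adult Gfra1 differed between females of 42 weeks and males of 36 weeks, in which sex and age in weeks cannot be told apart. In PDTC rats the 5 females had 7.94, 7.22, 7.81, 7.92 and 7.49 and the 5 males 7.87, 7.95, 7.96, 8.50 and 7.94. In untreated rats the 5 females had 7.73, 7.56, 7.15, 7.34 and 7.07 and the 5 males 8.12, 8.22, 8.68, 8.58 and 7.97. Untreated females lay below all untreated males, while PDTC females and males overlapped. The share of all probes for which the sexes lay apart in this way was not counted. A difference between the treatments in this respect did not pass its test, as given below. Over both treatments females averaged 7.52 ± 0.32 and males 8.18 ± 0.30 (SD, n = 10 each), so that females were lower by 0.655 ± 0.14 in log2 level (1.57-fold; SE, limma, adjusted p = 0.00786), in a comparison that called 2.69% of 11701 probes (1.45% higher and 1.24% lower in females). Of the 5 genes Gfra1 alone was called, and the other gene tested, Lhx1, was at 8.37 ± 0.80 in females and 8.81 ± 1.08 in males (limma, adjusted p = 0.623).

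The female value of Gfra1 was below the male value on each of the 4 adult slides, by 0.14 to 0.92 in log2 level. Leaving out each adult in turn kept the difference, females minus males, between -0.70 and -0.60 (limma, adjusted p 0.0065 to 0.0182). The difference of the PDTC effect between the sexes was 0.58 ± 0.27 (SE, females minus males; limma, adjusted p = 0.63) and did not pass. At 2 days Gfra1 averaged 7.84 ± 0.17 in females and 7.80 ± 0.18 in males (n = 9 each), and at 2 weeks 6.27 ± 0.16 in females (n = 11) and 6.35 ± 0.25 in males (n = 10). At these ages limma called 0 probes between the sexes (151 and 159 at an unadjusted p under 0.05). The 7 collecting duct markers, which label the adult derivative of the ureteric bud, were not called between adult females and males (limma, lowest adjusted p = 0.281, Fxyd4). Among the proximal tubule markers Cubn, an endocytic receptor, was higher in females, at 12.84 against 12.13 in males (limma, adjusted p = 0.00239), while the other 3 were not called, with female minus male differences in log2 level of -0.20 for Aqp1, 0.013 for Slc34a1 and 0.18 for Slc5a2. The part of cell composition in the Gfra1 difference was not tested.

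**Figure D4:**
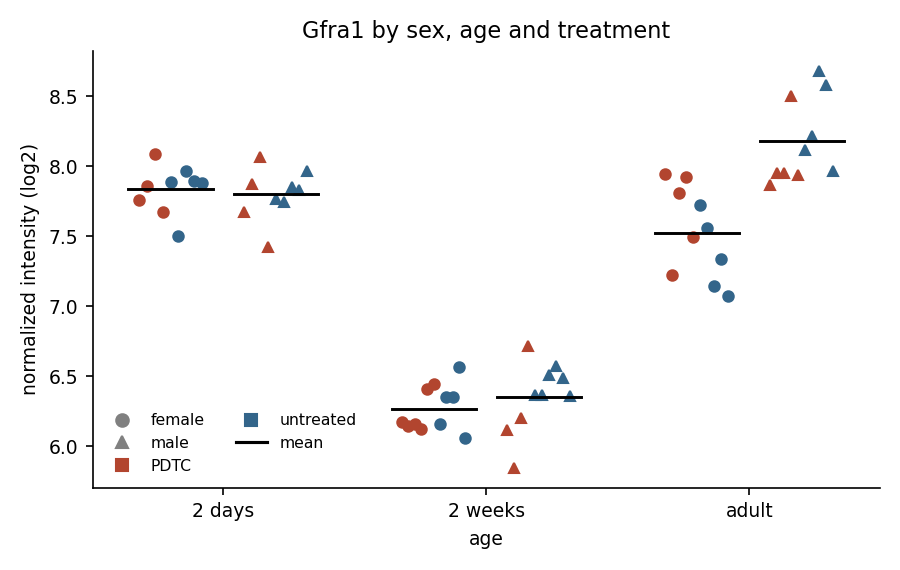
Normalized intensity (log2, vertical axis) of Gfra1 on each array at 2 days, 2 weeks and adulthood, females left of males, coloured by treatment; bars are means over both treatments. The sexes overlap at 2 days and 2 weeks, and in adults females average 7.52 and males 8.18. Adult females were 42 weeks and adult males 36 weeks old.

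The spread of Lhx1 at 2 days and in adulthood followed a pattern shared by many probes. Over the arrays of 1 age, its level correlated with the first principal component of that age (which takes in Lhx1 itself among the tested probes and 27.3% to 31.5% of their variance) with r = 0.772 at 2 days (rho = 0.637, n = 18), 0.732 at 2 weeks (rho = 0.113, n = 21) and 0.76 in adulthood (rho = 0.671, n = 20). Without the 2 arrays farthest from the median of the component r was 0.721 at 2 days, 0.087 at 2 weeks and 0.736 in adulthood, so that at 2 weeks it rested on those arrays. Within groups r was 0.732 at 2 days and 0.705 in adulthood. These are descriptions of arrays that share their slides and their normalization. The sign of a component is arbitrary and was set at each age so that r with Lhx1 was positive. For Lhx1 only the size of r is thus a result, and the signs of the other genes are relative to that direction. No other gene of the 5 had an r over 0.4 with the component at 2 days or in adulthood, while at 2 weeks Wnt11 had 0.678. Without the 2 farthest arrays of 2 weeks, r was 0.671 for Wnt11, -0.659 for Gfra1, 0.627 for Etv4 and -0.708 for Ret. Etv4 and Ret were at background on most arrays of that age. At 2 weeks the component was thus followed more closely by these 4 genes than by Lhx1 once those arrays were left out. With that component as a covariate, the PDTC difference in Lhx1 was 0.11 at 2 days and 0.43 in adulthood, and Gfra1 was lower in adult females by 0.69.

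**Figure D5:**
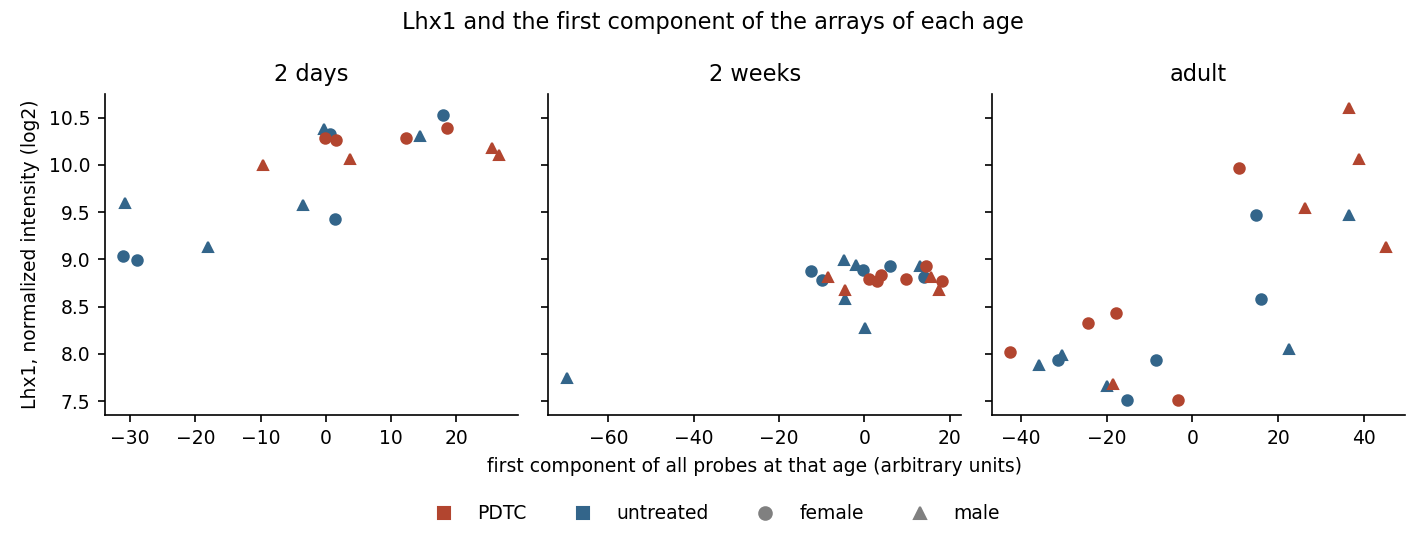
Lhx1 level (log2, vertical axis) against the first principal component of the probes tested at that age (horizontal axis, arbitrary units) for the arrays of 2 days, 2 weeks and adulthood, coloured by treatment, circles females and triangles males. The sign of the component was set at each age so that r with Lhx1 was positive. With that sign r is 0.772 at 2 days and 0.76 in adulthood, and at 2 weeks untreated male 6 lies alone at -69.7.

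At 2 days 206 of 13162 other probes (1.57%) had an r over 0.8 with Lhx1, and in adulthood 148 of 11700 (1.26%). The 5 genes with the highest r at 2 days and the 5 with the highest in adulthood differed in how far this held at the other ages. Klf13, a Krüppel-like transcription factor, had r = 0.953 with Lhx1 at 2 days, 0.931 at 2 weeks and 0.925 in adulthood. Actr2, a subunit of the actin-nucleating Arp2/3 complex, had 0.933, 0.893 and 0.921 for the same ages, and Bmpr2, a receptor of bone morphogenetic proteins, 0.902, 0.931 and 0.939. Veph1 had 0.933 at 2 days and 0.409 at 2 weeks, and Akr1c12 had 0.94 in adulthood but -0.028 at 2 days and 0.113 at 2 weeks. At the opposite end in adults were Trappc2l (r = -0.916), the ATP synthase subunit Atp5me (-0.88), the proteasome subunit Psmb4 (-0.877), Oscp1 (-0.864) and the ribosomal protein Rpl35 (-0.854). At 2 days the same 5 genes had -0.08, -0.287, 0.257, -0.52 and -0.404. Whether these 2-week values rest on single arrays was not tested. RNA quality was not given in the sources used here, and its part in the spread of Lhx1 was not tested.

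Over the 12 group means, Ret and Etv4 ran closest together (r = 0.984), then Wnt11 and Etv4 (0.97) and Wnt11 and Ret (0.965). Lhx1 had 0.863 to 0.889 with these 3 genes and Gfra1 0.162 to 0.39 with the other 4. Ret was above background on 1 and Etv4 on 4 of the 21 arrays of 2 weeks, and neither on any adult array. Every r with Ret or Etv4 thus largely sets newborn levels against background. The genes nearest to Wnt11 were Epdr1, Ntng1 and Spag4 (each r = 0.997), and those nearest to Etv4 were C1qtnf12, Agtr2 and Tnfrsf19 (each 0.996). Agtr2, the type 2 angiotensin receptor, averaged 7.42 at 2 days, 5.04 at 2 weeks and 4.68 in adulthood. Nearest to Ret were Nell1 and Chst8 (0.992) and Lingo1 (0.991), and nearest to Lhx1 were Scube3 (0.956), Usp14 (0.953) and Tbpl1 (0.937).

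Of 10063 probes compared, 5 had an r over 0.95 with Gfra1 and 2 with Lhx1 over the 12 group means, and 270 had one with Wnt11, 121 with Etv4 and 88 with Ret. The counts for Etv4 and Ret carry the same limit of levels at background. The nearest to Gfra1 were Tas1r1 (0.969), Cyp24a1 (0.961) and Cct2 (0.954). Cyp24a1, the enzyme that inactivates vitamin D hormone, averaged 11.73 at 2 days, 6.62 at 2 weeks and 11.25 in adulthood.

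Other genes of kidney development were counted by list, leaving out the 6 genes, and describe the setting of these falls. Of 14 tested genes of the ureteric bud and its signals 8 fell from 2 days to 2 weeks in PDTC rats and 8 in untreated rats, and none rose, where 18.1% and 22.3% of all probes fell and 15.6% and 17.9% rose. The 8 were the same genes but for Robo2, which passed the test in PDTC rats alone, and Spry1, which passed in untreated rats alone. In both treatments Gdnf and Sox8 were above background on no array of 2 weeks and passed the filter through their 2-day arrays. They could only be lower, and 6 genes remain without them in each treatment. The list's median difference in log2 level was -0.32 in PDTC rats and -0.25 in untreated rats, against -0.003 and -0.009 over all probes. Fgfr2, a fibroblast growth factor receptor of the bud, fell by 0.86 in PDTC rats and fell by 0.89 in untreated rats (limma, adjusted p = 4.46e-08 and 2.24e-09). Emx2, a homeobox factor of the bud, fell by 0.57 in PDTC rats and fell by 0.56 in untreated rats. Gdnf, the ligand of Ret and Gfra1, had a fitted difference of -0.95 in PDTC rats and -0.67 in untreated rats, at a low level: it was above background on 6 of 8 PDTC arrays and 5 of 10 untreated arrays at 2 days and on none later.

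Of 8 tested genes of the cap mesenchyme, the nephron progenitors, 5 fell in PDTC rats and 4 in untreated rats, and none rose, with medians of -0.32 and -0.25. Leaving out Six2, Cited1 and Osr1, which were above background on no array of 2 weeks and passed the filter through their 2-day arrays, 2 fell in each treatment, Wt1 and Sall1. Six2, which keeps these cells in the progenitor state, had a fitted difference of -0.57 in PDTC rats and -0.68 in untreated rats, and was above background on 4 of 8 and 6 of 10 arrays at 2 days and on none at 2 weeks. Wt1, which podocytes also express, fell by 1.39 in PDTC rats and fell by 1.61 in untreated rats, and Sall1 fell by 0.38 in PDTC rats and fell by 0.57 in untreated rats. Only 8 of the 17 genes with a probe passed the filter, so the counts leave out genes that were dim at both ages.

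Of 14 tested genes of the renal vesicle and early nephron 7 fell and 2 rose in each treatment. The 7 were not all the same: Bmp2 passed the test in PDTC rats alone and Pou3f3 in untreated rats alone. Each was above background on some 2-week arrays, but Fgf8 on 0 PDTC and 4 untreated arrays of that age. Fgf8 could thus only be lower in PDTC rats. Lef1 was above it on 1 PDTC and 2 untreated arrays of 2 weeks, too few for the filter, and passed through its 2-day arrays. Its fall, counted in both treatments, thus supports nothing further. Wnt4, which drives the mesenchyme into epithelium, fell by 0.83 in PDTC rats and fell by 1.002 in untreated rats by 2 weeks and was at background in all adults. Dkk1, a Wnt inhibitor, fell by 1.20 in PDTC rats and fell by 1.32 in untreated rats, and Sfrp2, a secreted Wnt modulator, rose by 1.18 in PDTC rats and 1.23 in untreated rats. Of 7 tested genes of the stroma 4 fell and 1 rose in each treatment: Meis1 fell by 1.05 in PDTC rats and fell by 1.25 in untreated rats, Fat4 fell by 0.52 in PDTC rats and fell by 0.585 in untreated rats, and the collagen-binding proteoglycan Dcn rose by 0.46 and 0.70. In none of the 4 lists was a gene called between PDTC and untreated rats at any age.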

How the data were processed

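Each of 59 kidneys was hybridised to 1 Illumina RatRef-12 array. The deposited table gives the intensity of each probe and, per the file headers, a detection p-value; the authors' value table holds deposited log2 values, which differed by at most 0.262 from log2 of the quantile-normalized signals. No source used here gives the authors' scanner software or background treatment. The deposited p-value was two-sided, so limma's neqc was adapted: an array's background level was taken from the 50 probes of highest p-value (their median signal) and its SD from the mirrored signals below it. Signals were corrected by normexp, 16 was added, and arrays were quantile-normalized and put on the log2 scale. A probe was above background at a one-sided p under 0.05 and was tested when above it on at least 4 arrays of the fit.

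Of the probes 13793 had 1 gene symbol in the platform annotation, 0 several and 8730 none; 13752 symbols were matched by gene ID to GRCr8. limma 3.58.1 in R 4.3.3 (lmFit and eBayes, Benjamini-Hochberg over all probes tested, threshold 0.05) gave 15 comparisons: the 8 groups of 2 adjacent ages shared a fit for changes with age and the 4 groups of 1 age for treatment and sex. Groups came from the labels, and replicate numbers, given in accession order, pair no samples. No 2 arrays were identical. The number of arrays limits the precision.

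All probes of the 6 genes were named, and from each of 4 lists of other development genes the 3 with the smallest p at 2 weeks against 2 days in untreated rats. A gene with several probes was represented in the lists by the one with the highest mean. Genes alike were the 3 with the highest correlation over group means. The 6 genes, the lists and the tests were chosen with earlier results of these data known. The correlations of Lhx1 within an age, the first component as a covariate and the fit without slide 6 were chosen after seeing these values, as was the choice of Cubn, Fxyd4 and Cyp24a1 for a value of their own. A bound on a fold holds for background-corrected levels only. It sets the brighter mean against the mean of the lowest level measurable on each dim array. Intervals of 95% use limma's moderated SE and degrees of freedom. The fit was tested on simulated data. Alternatives were other background, scaling, filter, slide and fit settings and leaving out each array. Eya1 was not analysed here.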

Additional observations from a re-analysis of the deposited data

Results flagged for a closer look

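Of 60 groups of 4 to 6 arrays, 12 for each gene, 7 held 1 array far from the rest by Dixon's criterion at its 95% level, where chance gives about 1 in 20, or 3. Wnt11 in PDTC female 1 of 2 days was at 7.375 in log2 level, against 7.966 to 8.05 in the other 3. Gfra1 in untreated female 2 of 2 days was at 7.505, against 7.88 to 7.966 in the other 4. Gfra1 in PDTC male 4 of adulthood was at 8.502, against 7.865 to 7.956 in the other 4 males; without that male the difference between adult females and males was -0.597. Lhx1 in untreated male 5 of adulthood was at 9.472, against 7.663 to 8.053, and its removal brought the untreated difference between adults and 2 weeks to -0.626 (limma, adjusted p = 0.0347).

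The other 3 values were of Ret in groups where no array was above background: 5.145 in PDTC female 6 of 2 weeks (the others 4.584 to 4.771), 4.996 in PDTC female 2 of adulthood (4.597 to 4.684) and 5.105 in untreated male 2 of adulthood (4.472 to 4.626).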

How the results depend on the processing

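Of the values of the genes that passed the test, 134 of 136 kept their sign and their side of the threshold under the alternatives other than leaving out 1 array, and 648 of 648 with 1 array left out. These counts include Ret from 2 days to 2 weeks, and Wnt11 and Etv4 from 2 weeks to adulthood. Those entered the test through the brighter age, so that keeping their sign carries no weight. Among all values 483 of 487 kept their side under those alternatives. The 4 exceptions came with each array scaled to 1 median, where the adult minus 2-week difference was 0.027 for Etv4 and -0.913 for Lhx1 in PDTC rats and 0.125 for Etv4 and -1.41 for Lhx1 in untreated rats. That setting shifts all probes by -0.598 and -0.508 in these comparisons. With 1 array left out, 1693 of 1695 kept their side, the exceptions being Lhx1 without untreated adult male 5 or female 4. The number of the genes called moved only between adults and 2 weeks, where it was 3 in each treatment: it was 2 without any 1 of the 4 kidneys of 2 weeks in which Etv4 was above background, since Etv4 then missed the filter and was not tested, and 4 in untreated rats without untreated adult male 5 or female 4. The background correction kept every call but set the sizes: without it, or on the deposited log2 values, the differences from 2 days to 2 weeks were smaller, as given above.

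Signs were less stable than calls: 21 of 487 values changed sign, 18 of them for differences that did not pass the test either way. Scaled to 1 median, PDTC minus untreated at 2 days was 0.194 for Gfra1 and 0.158 for Etv4, and the age change to 2 weeks, PDTC minus untreated, was -0.099 for Etv4. With slide as a fixed term, PDTC minus untreated was -0.033 for Wnt11, 0.038 for Gfra1 and 0.038 for Etv4 at 2 days, -0.048 for Lhx1 at 2 weeks and -0.024 for Gfra1 in adulthood; females minus males was 0.033 for Wnt11 at 2 days, and the sex difference of the PDTC effect 0.023 for Wnt11 at 2 weeks. With slide as a random block, PDTC minus untreated at 2 days was -0.002 for Wnt11 and 0.007 for Gfra1, and females minus males 0.013 for Wnt11. PDTC minus untreated at 2 days was -0.043 for Wnt11 and 0.011 for Gfra1 without slide 6, and -0.036 and 0.02 with the first component as a covariate, where females minus males was 0.065 for Lhx1 in adulthood. With 1 array left out 47 of 1695 values changed sign, none of which passed the test. PDTC minus untreated then ran from -0.077 to 0.03 for Gfra1 and -0.141 to 0.045 for Etv4 at 2 days, -0.02 to 0.105 for Lhx1 at 2 weeks and -0.038 to 0.076 for Gfra1 in adulthood. Females minus males ran from -0.053 to 0.069 for Wnt11, -0.014 to 0.093 for Gfra1, -0.131 to 0.054 for Etv4 and -0.064 to 0.128 for Lhx1 at 2 days, and from -0.067 to 0.077 for Wnt11 and -0.123 to 0.022 for Gfra1 at 2 weeks. The sex difference of the PDTC effect at 2 days ran from -0.014 to 0.23 for Wnt11, -0.02 to 0.194 for Gfra1 and -0.18 to 0.191 for Etv4, and adult minus 2 weeks in PDTC rats from -0.042 to 0.363 for Lhx1.

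Counts over all probes moved more. Scaled to 1 median, 2916 probes were called at 2 weeks against 2 days in PDTC rats in place of 4741, 3434 in untreated rats in place of 5666, and 122 between adult females and males in place of 315. With 1 fit of all 59 arrays, 1 probe was called for PDTC at 2 days, 51 for PDTC in adulthood and 435 for the sex difference of the PDTC effect in adulthood, each in place of 0, and 1482 between adult females and males. With the first component as a covariate the last was 484. Leaving out 1 array gave 0 to 1 for the treatment difference of the age change to 2 weeks, 0 to 258 for PDTC at 2 days (258 without untreated male 4, 36 without PDTC male 4 and 1 without untreated female 3) and 0 to 2 for the sex difference of the PDTC effect in adulthood; none of these probes was one of the genes. The cause of these shifts was not tested.

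No paired analysis was possible because the labels give no replicate numbers. Slide, which pairs no rats, was used as a block instead. As a random block it changed no call among the genes. As a fixed term it changed none either, but that fit was not run for adults against 2 weeks. Intensities near background limit Ret at every age, Etv4 and Wnt11 from 2 weeks on, and all comparisons of adults with 2 weeks, where slides differ.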
